A study of Mus musculus with 8 samples.

Results

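The chemokines and the chemokine receptors were followed as one gene family in RNA sequencing of mouse limbus and cornea. Members were taken by symbol alone, as every gene named Ccl, Cxcl, Cx3cl, Xcl, Ccr, Cxcr, Cx3cr or Xcr followed by a digit. This gave 58 of 23420 named genes, of which 38 encode ligands and 20 encode receptors. Reads were found for 46 of the 58, and 12 were listed with a mean of 0 and are given as undetected.

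The tissue came from the eyes of 8-week-old wild type C57BL/6J mice without treatment. The limbal rim, the border zone that holds the stem cells of the corneal epithelium, was dissected from the central corneal button, and the pieces of each tissue were pooled before RNA extraction. The labels list 8 samples, 4 of the cornea and 4 of the limbus, but the table holds only 1 library per tissue, so there were no replicates, no test between tissues and no p-value. Sequencing depth over all named genes was 26104317 reads for cornea and 21182025 for limbus.

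Chemokines are small signalling proteins that guide the movement of leukocytes and of other cells. They are grouped by the spacing of their first cysteines into CC, CXC, CX3C and XC families, and they act through receptors that couple to inhibitory G proteins. The avascular central cornea normally holds few leukocytes, whereas the limbus carries the blood and lymphatic vessels through which they arrive.

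For each gene, the ratio of limbus to cornea was taken after dividing reads by the size factor of the library, and its 95% confidence interval is the exact Clopper-Pearson interval. Such an interval covers counting error only and not the difference between animals or dissections. A gene with at least 20 reads in both libraries together was called where the ratio reached 2-fold and the interval lay off 1. A library under 3 reads was set to 3 for this call, also where its count was above 0. The value was taken as what a count of 0 allows, and it is a fixed floor rather than an end of the exact interval.

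Of the 20 members with at least 20 reads, 12 were called higher in the limbus, 0 were called higher in the cornea and 8 were not called. Among all 13944 genes with that many reads, the shares called were 17.7% towards the limbus and 8.75% towards the cornea. The median log2 ratio of the 20 members was 1.42, against -0.04 for all genes. By role, 8 of 14 ligands and 4 of 6 receptors were called higher in the limbus.

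This background depended on the number of reads. Among genes of 20 to 99 reads, 51.5% were called higher in the limbus, and so were 7 of 10 members. At 100 reads or more the share over all genes was 11.8%, and 5 of 10 members were called. The shares of all genes are given here as the background against which the members' counts are read, without a test of the list.

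**Figure D1:**
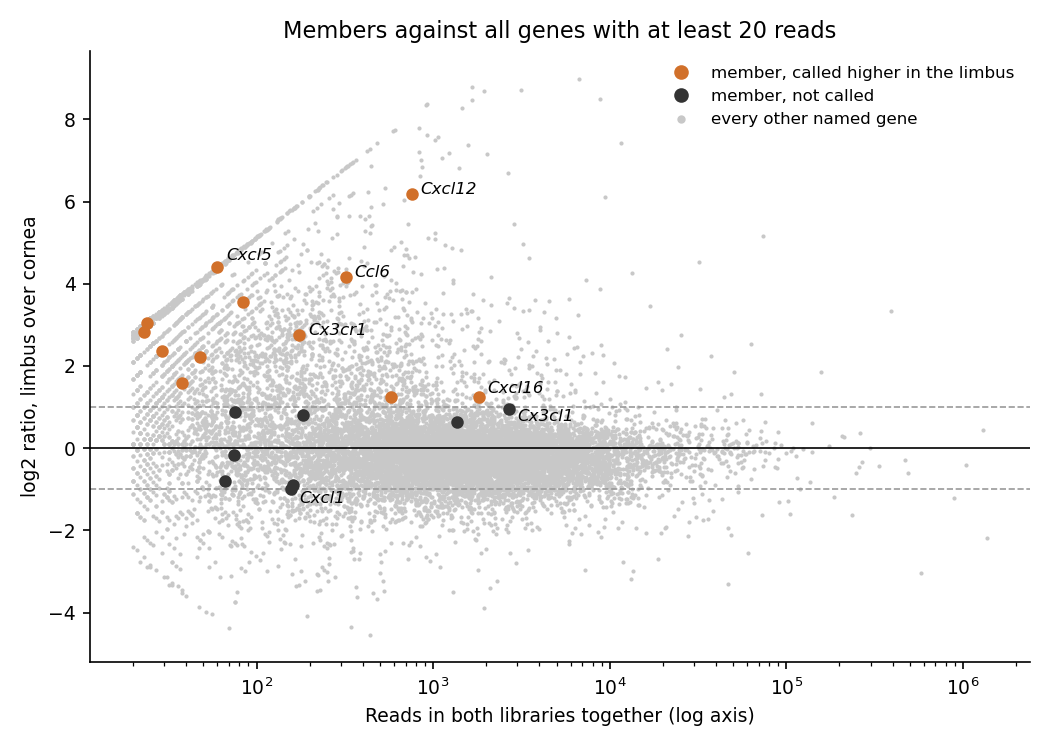
Each point is a gene with at least 20 reads, by its reads in both libraries together (log axis) and its log2 ratio of limbus over cornea, with libraries under 3 reads set to 3. Dashed lines mark 2-fold. The members, drawn large, lie above the limbal line in 12 of 20 cases, while low-count genes of any kind also spread towards the limbus.

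The 5 members called at 100 reads or more were Cxcl12, Ccl6, Cx3cr1, Cxcl14 and Cxcl16. The other 7 called members, Ccl9, Cxcl5, Ccr2, Ccr1, Ccl12, Ccl11 and Cxcr4, rested on fewer reads and had wider intervals.

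Cxcl12, the homing chemokine that holds blood stem cells in the bone marrow, showed the largest ratio of any member with reads in both libraries. It had 11 cornea reads and 748 limbus reads. The ratio was 72.7-fold, a log2 ratio of 6.18 (95% CI 5.34 to 7.19). Its share of all chemokine ligand reads was 0.53% (95% CI 0.27 to 0.95, exact Clopper-Pearson) in the cornea and 15.18% (14.19 to 16.22) in the limbus. The gene lies on chromosome 6 from 117168535 to 117181367 (GRCm38, plus strand).

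Cxcl14, a chemokine made by resting epithelia, was read 178 times in the corneal and 396 times in the limbal library. This was 2.38-fold more in the limbus (log2 1.25, 95% CI 0.99 to 1.51), so that the interval reached just under 2-fold. Cxcl16, a transmembrane chemokine that also acts as a scavenger receptor, had 560 cornea reads and 1249 limbus reads. Its log2 ratio was 1.25 (95% CI 1.11 to 1.40), nearly the value of Cxcl14 with a narrower interval.

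Cx3cl1, or fractalkine, is a membrane-anchored chemokine that can also hold leukocytes to a cell surface. It had 956 cornea reads against 1729 limbus reads (log2 0.95, 95% CI 0.84 to 1.07). The limbal excess was beyond counting error and fell just short of the 2-fold needed for a call.

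Per kilobase of exon, the same 3 ligands had the highest levels in both tissues. The level of Cx3cl1 was 235.3 normalised reads per kilobase in the cornea against 454.8 in the limbus. That of Cxcl16 was 179.3 and 427.4, and that of Cxcl14 was 94.3 and 224.1. Limbal Ccl6 came next at 174.5 per kilobase, against 9.70 in the cornea, and limbal Cxcl12 reached 94.6 per kilobase, against 1.30.

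**Figure D2:**
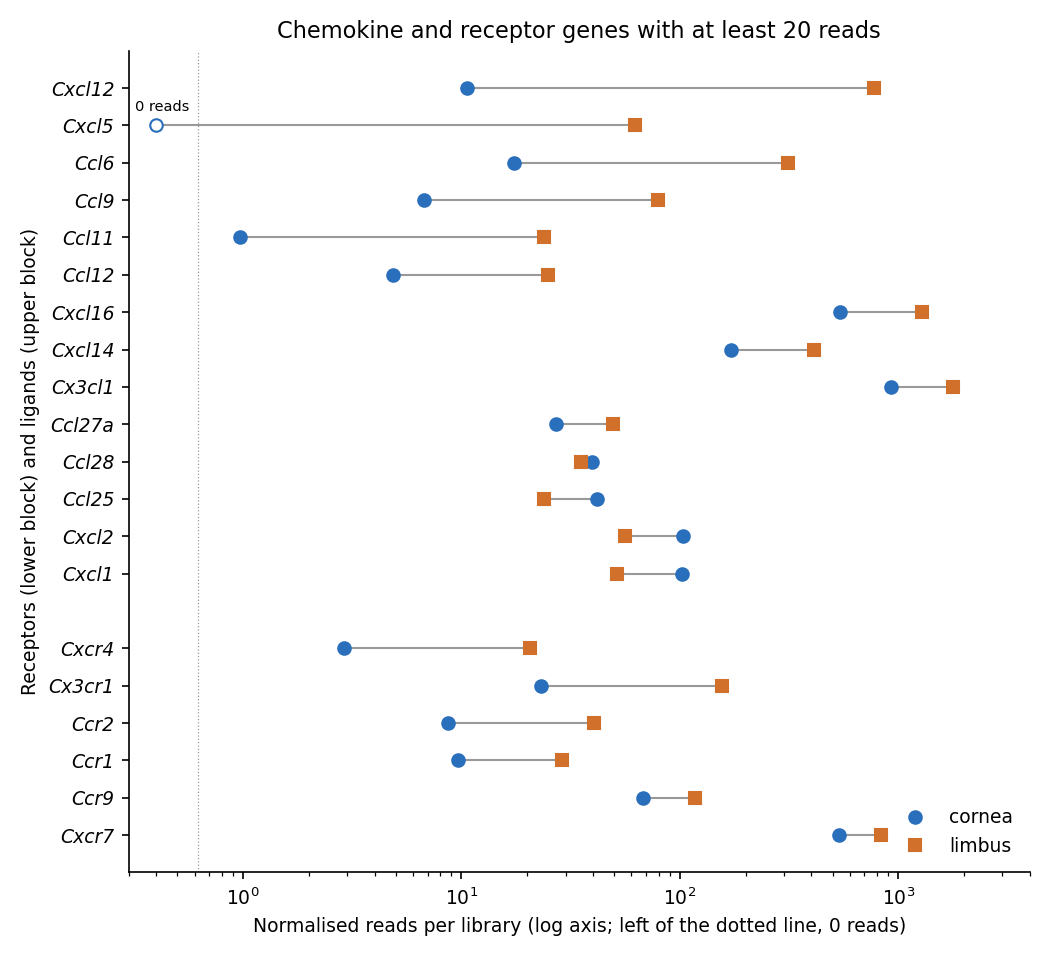
Normalised reads of the 20 members with at least 20 reads (log axis), with circles for the cornea library and squares for the limbus library. Receptors form the lower block and ligands the upper, and the open circle is Cxcl5, which had 0 cornea reads. The limbus lies to the right for 16 of the 20 genes and the cornea for Ccl28, Ccl25, Cxcl2 and Cxcl1.

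The chemokines that draw neutrophils through the receptor Cxcr2 were split between the tissues. Cxcl5, Cxcl3, Cxcl1 and Cxcl2 form a cluster on chromosome 5, from 90759360 to 90905938. Cxcl1 had 106 cornea reads and 50 limbus reads, which is 1.98-fold more in the cornea (log2 -0.99, 95% CI -1.50 to -0.49). Cxcl2 had 107 and 54 reads, 1.85-fold more in the cornea (log2 -0.89, 95% CI -1.39 to -0.41). Both were higher in the cornea beyond counting error, and both stayed under 2-fold. Of all genes with at least 20 reads, 40.5% were higher in the cornea by the interval alone.

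In contrast, Cxcl5 had 0 cornea reads and 60 limbus reads. Against the 3 reads that a count of 0 allows, this was 21.4-fold higher in the limbus. That value leaves out the counting error of the limbus reads, and the exact interval of the log2 ratio began lower, at 4.075. Cxcl3 had 1 cornea read and 0 limbus reads, too few for a ratio. Cxcl3 and Cxcl2 have 75-base stretches in common, which cover 4.6% of Cxcl2. Their receptor Cxcr2 had 0 and 5 reads, so the 3 ligands with reads to compare were measured beside a receptor near the limit of detection.

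The RefSeq promoters of Cxcl1 and Cxcl2, the pair that leaned towards the cornea, and that of Cxcl12, the gene furthest towards the limbus, are shown for comparison. Each run is the 250 bases before the transcription start on the plus strand of GRCm38.p6, read from 5′ to 3′. Capitals mark matches on either strand to GGAATTTCC, the core of a site bound by NF-kappaB, a motif chosen after these promoters had been seen. The letters of the TATA box, TATAAA, were searched on both strands too and were in none of the 3 windows.
Cxcl1, chr5:90890995-90891244: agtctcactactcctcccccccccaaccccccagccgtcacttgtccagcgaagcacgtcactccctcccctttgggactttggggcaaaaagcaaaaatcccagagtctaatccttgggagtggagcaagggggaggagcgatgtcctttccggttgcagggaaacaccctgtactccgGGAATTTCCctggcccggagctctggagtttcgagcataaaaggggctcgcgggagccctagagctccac
Cxcl2, chr5:90903649-90903898: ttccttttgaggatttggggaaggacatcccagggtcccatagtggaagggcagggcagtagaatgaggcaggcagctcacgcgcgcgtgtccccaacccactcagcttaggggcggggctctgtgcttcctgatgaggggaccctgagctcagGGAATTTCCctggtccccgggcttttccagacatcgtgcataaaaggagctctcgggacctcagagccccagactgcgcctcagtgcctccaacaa
Cxcl12, chr6:117168285-117168534: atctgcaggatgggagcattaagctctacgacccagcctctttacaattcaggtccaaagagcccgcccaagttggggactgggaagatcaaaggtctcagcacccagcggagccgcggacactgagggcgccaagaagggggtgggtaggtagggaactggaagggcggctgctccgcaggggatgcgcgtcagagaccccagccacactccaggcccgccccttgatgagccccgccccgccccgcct

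The match in Cxcl1 lay 70 to 62 bases before the start and that in Cxcl2 lay 96 to 88 bases before it, while the window of Cxcl12 held none. Over all 32851 promoters of the table, 0.286% held GGAATTTCC and 12.4% held TATAAA. The 42 members with an entry had 49 promoters, of which 5 held the first motif (10.2%) and 13 the TATA letters (26.5%). The 5 belonged to Cxcl1, Cxcl2, Cxcl3, Cxcl10 and Ccr3, and the first 3 are neighbours of one gene cluster with related sequence, so they are not separate instances. Cxcl10 (1 cornea and 5 limbus reads) and Ccr3 (0 and 1) had more limbus reads, though few. Cxcl5, the limbal gene of that cluster, had no promoter entry. A relation of the motif to the tissue ratios was not tested. A match describes letters in a window and not a site in use.

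Among the genes taken as inducers of chemokines, Il1a, the alarm cytokine of epithelial cells, was the only one of 9 with enough reads that was called, and it was higher in the cornea. It had 1913 cornea reads and 665 limbus reads (2.69-fold, log2 -1.43, 95% CI -1.56 to -1.30). Of all genes with at least 20 reads, 8.75% were called higher in the cornea. The log2 ratios of Nfkb1, Nfkbia and Rela, components of the NF-kappaB pathway, were 0.19, 0.53 and 0.42. Il6 and Ifng were listed at 0.

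The CC chemokines were led by the myeloid genes Ccl6 and Ccl9, which act through Ccr1 and lie next to each other on chromosome 11 between 83572919 and 83593087. Ccl6 had 18 cornea reads and 303 limbus reads, an 18.0-fold ratio (log2 4.17, 95% CI 3.48 to 4.94). Ccl9 had 7 and 77 reads, an 11.8-fold ratio (log2 3.56, 95% CI 2.44 to 4.92). The 2 intervals overlapped.

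A second group on chromosome 11, from 82035571 to 82305690, holds Ccl2, Ccl7, Ccl11, Ccl12, Ccl8 and Ccl1. Ccl11, or eotaxin, which draws eosinophils through Ccr3, had 1 cornea read and 23 limbus reads (ratio 24.6, log2 4.62, 95% CI 2.0 to 9.98). With the cornea set to 3 reads, as for the call, its log2 ratio was 3.03. Ccl12, a monocyte attractant that binds Ccr2, had 5 and 24 reads (log2 2.36, 95% CI 0.94 to 4.11). Ccl2 had 1 and 9 reads, Ccl7 had 0 and 8, and Ccl8 had 2 and 5, while Ccl1 was undetected. All 5 genes of the group with reads had more in the limbus, and the interval of Ccl8 included 1.

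In the neighbouring group with Ccl5, Ccl9, Ccl6, Ccl3 and Ccl4, the inflammatory genes Ccl3 and Ccl4 had only 1 cornea read each and 4 and 6 limbus reads. Ccl5, which attracts T cells, had 1 and 15 reads (log2 4.0, 95% CI 1.30 to 9.40).

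Ccl22 and Ccl17, both ligands of Ccr4 made by dendritic cells, flank Cx3cl1 on chromosome 8. Ccl22 had 0 cornea reads and 19 limbus reads, 6.77-fold higher with the cornea set to 3 reads (exact log2 interval from 2.318). Ccl17 had 0 and 17 reads, 6.06-fold higher in the same way (exact log2 interval from 2.141). Both lay under 20 reads and so outside the call, as did their receptor Ccr4 with 0 and 3 reads. Cx3cl1 between them was far more abundant than either in both tissues, as its 235.3 and 454.8 normalised reads per kilobase show.

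Ccl28, Ccl27a and Ccl25 were not called. Ccl28, a mucosal chemokine that binds Ccr10, had 41 cornea reads and 34 limbus reads (log2 -0.17, 95% CI -0.87 to 0.52), and its sign turned to 0.03 after scaling to total reads. Ccl27a, the skin ligand of the same receptor, had 28 and 48 reads (log2 0.87, 95% CI 0.17 to 1.60). Ccr10 itself had 1 read in each library.

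Ccl25, the thymic and intestinal ligand of Ccr9, had 43 cornea reads and 23 limbus reads (1.75-fold more in the cornea, log2 -0.81, 95% CI -1.61 to -0.04). Ccr9 had 70 and 114 reads (log2 0.80, 95% CI 0.36 to 1.25), so ligand and receptor lay on opposite sides. Exons of protein-coding genes on the other strand overlap Ccl25 (Elavl1), Ccr9 (Slc6a20a, beside Gm17200 on the same strand), Ccl27a (Il11ra1) and Cxcl16 (Zmynd15), and whether counting used the strand is not stated. Ccl27a also has 33.3% of its 75-base windows in common with copies such as Ccl27b, so reads of those copies could have been assigned to either gene.

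**Figure D3:**
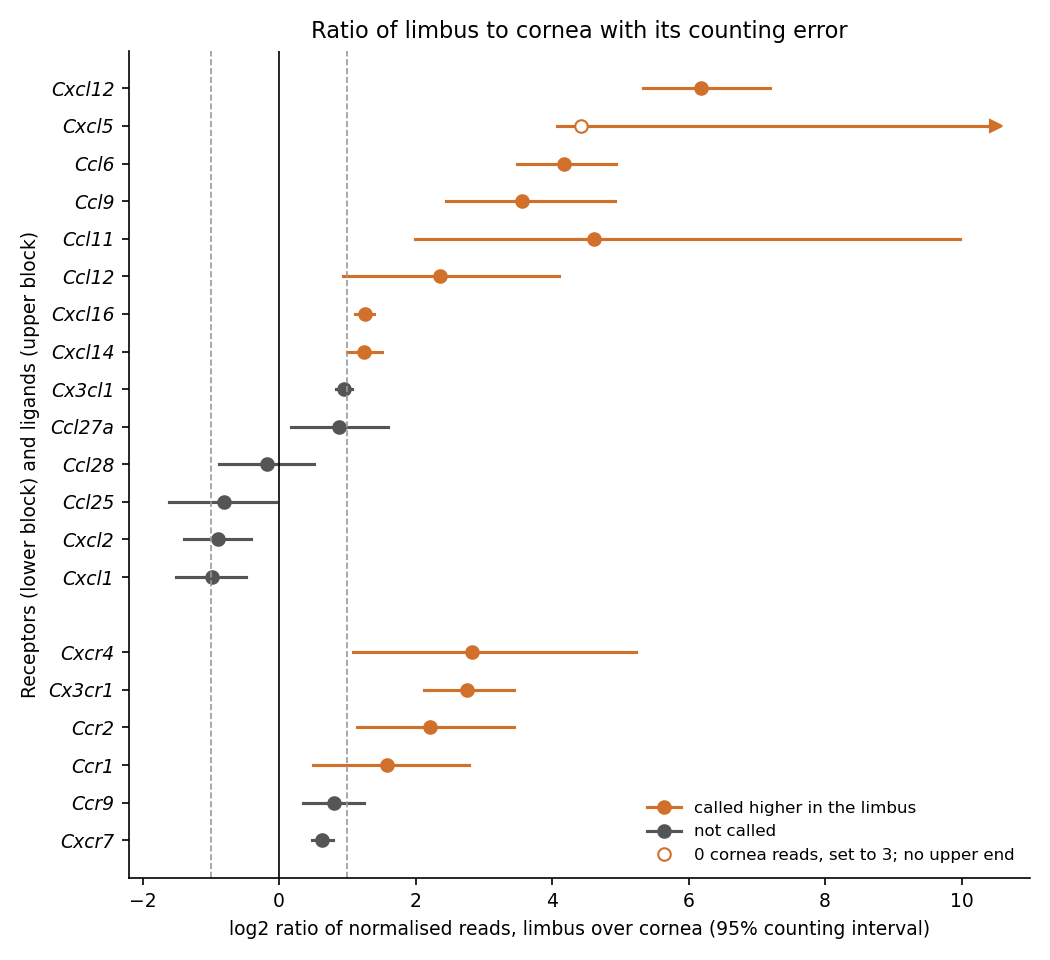
log2 ratio of limbus over cornea with its 95% counting interval for the 20 members with at least 20 reads. Dashed lines mark 2-fold in each direction, and Cxcl5, with 0 cornea reads, is drawn at 3 cornea reads with no upper end. The 12 called genes lie to the right, and Cxcl1, Cxcl2 and Ccl25 are the 3 whose whole interval lies left of 0. Over all genes with that many reads, the interval lay left of 0 for 40.5%.

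The 4 receptors called higher in the limbus were Cx3cr1, Ccr2, Ccr1 and Cxcr4, of which the last 3 had 20 to 99 reads, where 51.5% of all genes were called in that direction. Cx3cr1, the fractalkine receptor of monocytes and tissue macrophages, had 24 cornea reads and 151 limbus reads (6.72-fold, log2 2.75, 95% CI 2.12 to 3.44). This ratio and that of its ligand Cx3cl1, at 1.93-fold, had intervals that did not overlap.

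Ccr2, which recruits monocytes to tissues, had 9 and 39 reads (log2 2.21, 95% CI 1.14 to 3.44). Ccr1, the receptor of Ccl6 and Ccl9, had 10 and 28 reads (log2 1.58, 95% CI 0.50 to 2.79). Cxcr4, the signalling receptor of Cxcl12, had 3 and 20 reads (log2 2.83, 95% CI 1.08 to 5.23). The intervals of these 3 overlapped one another and that of Cx3cr1.

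Markers of leukocytes moved in the same direction. Among all genes with at least 20 reads, 17.7% were called higher in the limbus, and among those with 20 to 99 reads 51.5% were. Of 5 general leukocyte genes, 4 were called higher in the limbus and none was at 0, and their summed level was 129.6 normalised reads in the corneal and 794.9 in the limbal library (6.13-fold). Ptprc, which encodes CD45, had 30 and 72 reads, and Laptm5 had 50 and 368. Of 8 macrophage genes, 7 were called higher in the limbus and none was at 0, with a summed level of 679.1 and 2714.6 (4.0-fold). C1qb, a complement gene of macrophages, had 88 and 623 reads, and Cd68, the 1 not called, had 402 and 644. The part of these cells in the receptor and ligand values was not tested, and in pooled tissue fewer cells of a type and less RNA per cell cannot be told apart.

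The 6 dendritic and Langerhans cell genes summed to 556.2 normalised reads in the corneal and 5486.1 in the limbal library. Cd74 (413 and 3823 reads) and H2-Ab1 (141 and 1390) took most of them, so the sum follows these genes. The list also had 3 genes under 20 reads and outside the call, among them Cd207 with 2 and 10. The 6 T and NK cell genes had 4 and 32 reads in all. The neutrophil list was divided. S100a9, which epithelia also express, had 850 and 745 reads and was not called, S100a8 had 13 and 45 and was called higher in the limbus, and the granule genes Mpo and Elane were at 0 in both. Several other receptors had few reads, with Ccr7 at 0 and 7 reads, Cxcr3 at 0 and 6, Cxcr6 at 1 and 10, Ccr6 at 0 and 1, and Cxcr5 undetected.

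Cxcr7, listed today as Ackr3, takes up Cxcl12 without signalling through G proteins and was by far the most read receptor gene per kilobase. It had 554 cornea and 805 limbus reads, or 160.1 and 248.6 normalised reads per kilobase. The log2 ratio was 0.63 (95% CI 0.48 to 0.79), beyond counting error and under 2-fold. Its share of all receptor reads was 82.07% (95% CI 78.97 to 84.90, exact Clopper-Pearson) in the cornea and 66.75% (64.01 to 69.41) in the limbus.

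The 3 genes of the Cxcl12 axis had unlike ratios, at 72.7-fold for the ligand, 7.12-fold for Cxcr4 and 1.55-fold for Cxcr7. The interval of the ligand lay above those of both receptors, and the interval of Cxcr4 lay above that of Cxcr7. Per kilobase, Cxcr7 was above Cxcl12 in both libraries, at 160.1 against 1.30 in the cornea and 248.6 against 94.6 in the limbus.

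The other atypical receptors, which bind chemokines without G protein signalling, were scarce in the cornea. Ackr1, the Duffy receptor of venules and red blood cells, had 0 cornea reads and 82 limbus reads, and Ackr2, a scavenger of inflammatory CC chemokines found on lymphatic vessels, had 3 and 29. Both were called higher in the limbus, as were 51.5% of all genes with 20 to 99 reads. Ackr4 had 0 and 10 reads, and Ccrl2 had 25 and 34 and was not called.

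Vessel markers moved with Cxcl12 and with these receptors. The share of all genes with at least 20 reads called higher in the limbus was 17.7%. Of 5 blood vessel genes, 4 were called higher in the limbus and none was at 0, with a summed level of 232.2 normalised reads in the corneal and 2502.7 in the limbal library (10.8-fold). Pecam1 had 6 and 831 reads. Of 4 lymphatic genes, 3 were called, among them Lyve1 at 7 and 121 reads, and Pdpn, which other cells also express, had 2304 and 2911 reads and was not. Markers of skeletal muscle, 4 of 4 called, summed to 69.6 and 6743.1 normalised reads. The part of vessels and muscle in the chemokine values was not tested.

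**Figure D4:**
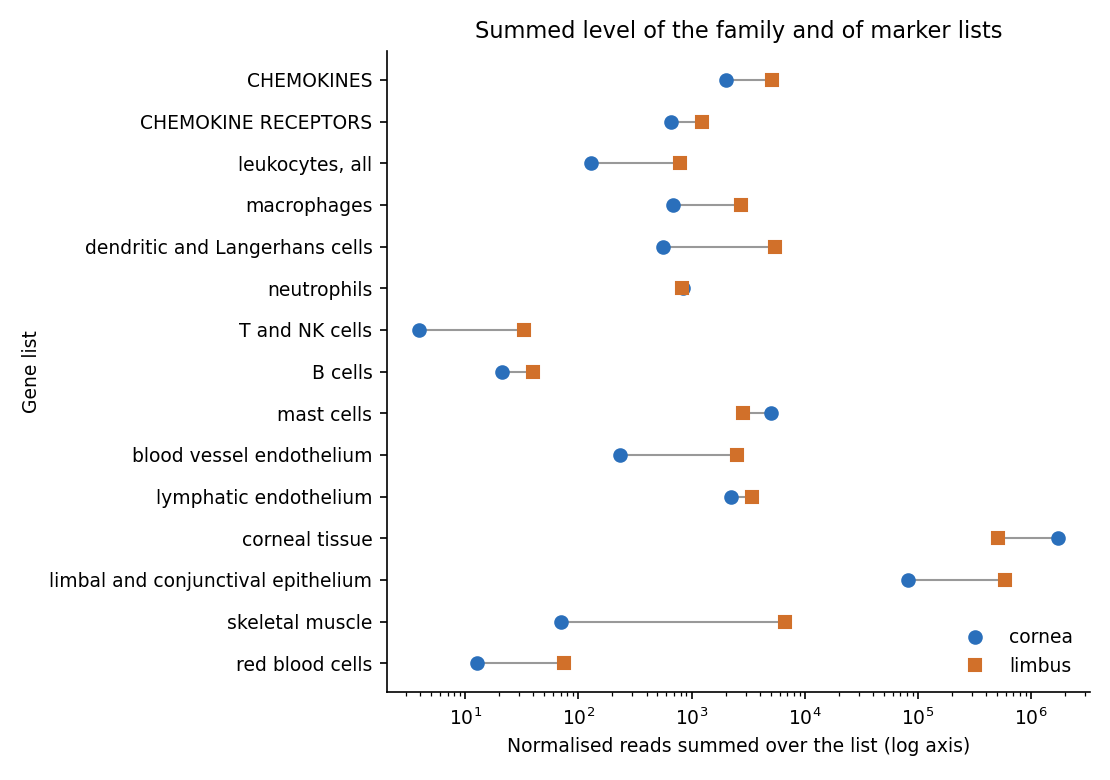
Normalised reads summed over each gene list (log axis), with circles for the cornea and squares for the limbus. The summed chemokines (2.54-fold) and receptors (1.91-fold) differ less between the libraries than the lists of leukocytes (6.13-fold) and blood vessels (10.8-fold), and the skeletal muscle list spreads furthest. They differ more than the lists of lymphatic endothelium (1.52-fold), B cells (1.85-fold), neutrophils (0.98-fold) and mast cells (0.57-fold). Each sum follows the most read genes of its list. The mast cell sum is almost all Kit (5165 cornea and 2491 limbus reads), which was not called. The 3 mast cell genes called higher in the limbus were Mcpt4 (0 and 139 reads), Cma1 (1 and 76) and Cpa3 (2 and 58). The B cell sum is mostly Cd79b (22 and 36 reads), which was not called.

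The tissue labels were checked on marker genes. Krt12, Aldh3a1 and Kera, genes of the differentiated cornea, were all called higher in the cornea, and Krt15, Krt14, Krt19, Gpha2 and Krt13 were all called higher in the limbus.

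Summed over the family, the cornea had 2073 ligand reads and 675 receptor reads, and the limbus had 4926 and 1206. After scaling, these were 2.54-fold and 1.91-fold more in the limbus. The make-up of these reads differed as well. Cx3cl1 made up 46.12% of cornea ligand reads (95% CI 43.95 to 48.29) and 35.10% of limbus ligand reads (33.77 to 36.45). Cxcl16 kept a similar share, at 27.01% (25.11 to 28.98) and 25.36% (24.15 to 26.59). Cxcl1 made up 5.11% in the cornea and 1.02% in the limbus, Cxcl2 made up 5.16% and 1.10%, and Ccl6 made up 0.87% and 6.15%.

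**Figure D5:**
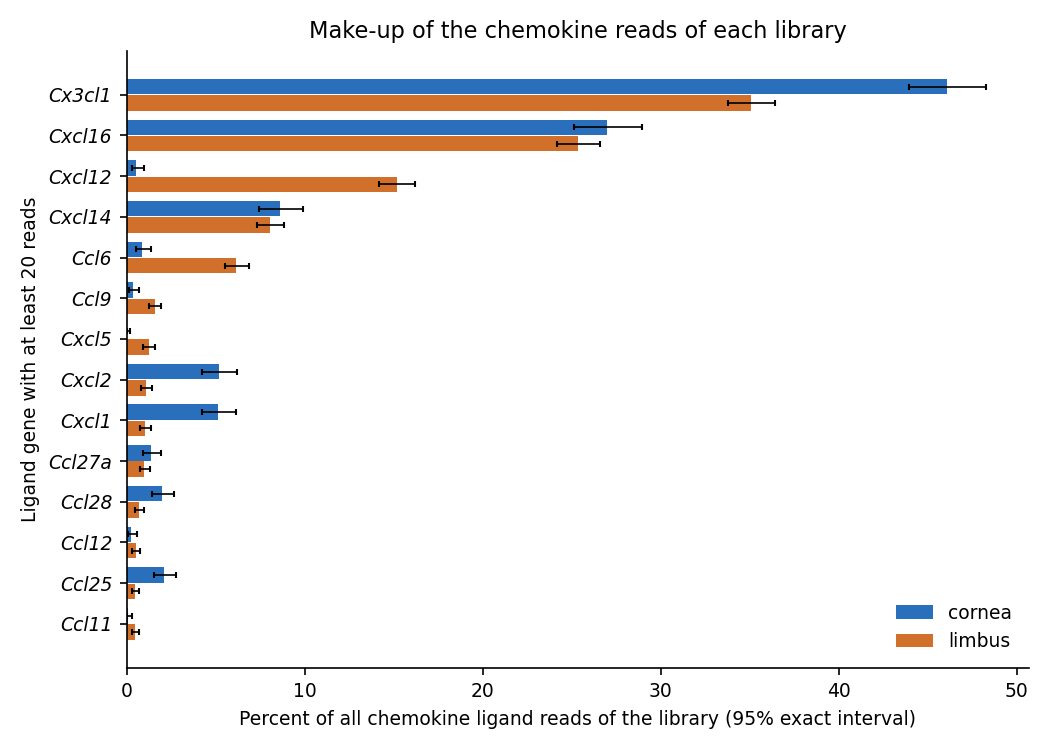
Share of all chemokine ligand reads of a library that each ligand took, in percent, with exact 95% counting intervals. Reads were not divided by gene length, so bars compare a gene between libraries. Cxcl12 and Ccl6 take a larger share in the limbus and Cx3cl1, Cxcl1 and Cxcl2 a larger one in the cornea.

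Genes that serve the family were mixed. Of 17 signalling genes with enough reads, 9 were called towards the limbus and 0 towards the cornea. Over all genes with at least 20 reads, the shares called were 17.7% and 8.75%. Several of the 9 had 20 to 99 reads, where 51.5% of all genes were called towards the limbus. The most read signalling genes were not called: Gnb1, Gnai2, Gnai3 and Grk2, which encode G protein subunits and a receptor kinase, had log2 ratios of -0.32, 0.09, -0.95 and 0.37. Of 8 genes for processing and presentation, 4 were called towards the limbus and 0 towards the cornea. Mmp2, a protease that can cleave Cxcl12, had 1275 and 3637 reads (log2 1.61, 95% CI 1.52 to 1.70). Adam17, which sheds Cx3cl1 and other surface proteins, and the syndecans Sdc1 and Sdc4 had log2 ratios of -0.57, -0.50 and -0.52.

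Genes listed as other chemokines, with symbols outside the rule, also had more limbus reads, and only Pf4 was called. Pf4, the platelet factor, had 12 cornea reads and 73 limbus reads (log2 2.70, 95% CI 1.81 to 3.72). Cklf, a chemokine-like factor, had 153 and 230 reads and was not called (log2 0.68, 95% CI 0.38 to 0.99). Ppbp had 2 and 5 reads, too few for a call (95% CI of log2 -1.19 to 4.81).

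The 26 members with 1 to 19 reads held 17 cornea reads and 157 limbus reads. Of these, 25 had more normalised reads in the limbus, 14 had 0 reads in the cornea, and 10 were beyond counting error. Among these were Ccl22, Ccl17, Ccl5, Cxcr6, Ccl2, Ccl7, Ccr7, Cxcr3 and Ccl24 (0 and 6 reads). Cxcl3 alone leaned to the cornea, by its 1 read. Ccr10, with 1 read in each library, counts among the 25 through the size factors only. A share over all genes of 1 to 19 reads was not worked out, so these counts have no background of their own. The share of 51.5% belongs to all genes of 20 to 99 reads and to the 2-fold rule.

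The remaining low members were Ccl20 with 2 and 6 reads, Cxcl17 with 2 and 4, Ccr10, and the interferon-induced ligands Cxcl9, Cxcl10 and Cxcl11, which had 1 cornea read and 8 limbus reads together. Ccr3, Xcl1 and Xcr1 had a single limbus read each. The intervals of all these remaining members included 1, so none of them differed beyond counting error.

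The 12 undetected members were Ccl1, Ccl19, Ccl21a, Ccl21b, Ccl21c, Ccl26, Ccl27b, Ccr1l1, Ccr8, Cxcl13, Cxcr1 and Cxcr5. Of these, Ccl19 and the Ccl21 genes encode the ligands of Ccr7 by which dendritic cells enter lymphatic vessels, and their reads are uncertain because near-identical copies exist. All 75-base windows of Ccl21b (100%), 98.0% of those of Ccl27b, 61.3% of those of Ccl21a and 45.3% of those of Ccl19 also occur in another gene. Hba-a1 and Hba-a2, the alpha globin genes, were likewise listed at 0, with 67.9% and 84.6% of their windows in common with each other. A listing at 0 of a gene with such copies is therefore not a measure of absence, and how the counting treated reads with several matches is not stated in the sources used here.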

How the data were processed

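Limbal rims and corneal buttons were pooled by tissue, and total RNA libraries (QIAseq Stranded Total RNA kit) were sequenced on a NextSeq 500. In CLC Genomics Workbench 20, the authors removed adaptors, aligned to GRCm38 (mm10) and scaled by trimmed mean of M-values. Per gene, the deposited table holds the mean normalized signal over both libraries and a log2 fold change plus its error. It also holds p-values and adjusted p-values of the authors' own comparison, which were not used. The deposited log2 fold change and its error were used only to place reads, as follows, and none of them is printed.

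The mean moves in whole reads of 2 libraries, with 109 cornea reads worth as much as 102 limbus reads, for all 17442 named genes with a mean above 0. For 6143 genes the mean allows 1 pair of read numbers. For the others, the pair was taken whose predicted shrunken fold change and standard error came closest to the deposited ones, and 17440 genes were met to within 0.001 in sum. Among members with reads, the mean alone fixed 38 of 46, and the largest miss was 7.6e-05. The other 8, Ccl6, Cx3cl1, Cxcl12, Cxcl14, Cxcl16, Ccr9, Cx3cr1 and Cxcr7, rest on the fit too. Tested on simulated data for cornea against limbus, 2000 of 2000 genes were found exactly. Reads are thus worked back from the table. The 17484 rows without a gene name stayed out.

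The labels give 4 numbered samples per tissue, and the table holds no value for any of them, so no test across replicates was made. Ratios are limbus over cornea of reads divided by size factors (1.0337 and 0.9674), with exact Clopper-Pearson intervals. All members with at least 20 reads are named, others by reads or as undetected (the values of some genes are not reported here), all atypical receptors and other chemokines, and from each further list at most 4 genes, out of the 4 with the most reads. Mpo, Elane, Il6 and Ifng, at 0, and Gpha2 were named beyond that rule, after their values were seen. The members and the gene lists were chosen with earlier results of these data known. Other scalings, read minimums, folds and a pseudocount of 1 were tried.

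Genes were identified by symbol, since the accession in the table belonged to the symbol in only 2 of 18554 rows that RefSeq knows. Positions are from GENCODE M21 (57 of 58 members matched, not Ccl21c), and promoter sequences from RefSeq. Calculations used Python 3.11.15, numpy 2.4.6, scipy 1.17.1 and pandas 2.3.3. The genome and annotation that CLC counted on are not given further in the sources used here. Ly6g, Trac and Hbb-bt were not used here.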

Additional observations from a re-analysis of the deposited data

How the results depend on the processing

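No paired analysis was possible because no numbered sample has a value of its own in the table, and leaving out a replicate was not run for the same reason. The number of members called higher in the limbus was 12 with the trimmed mean of M-values or a pseudocount of 1, 15 after scaling to total reads, which added Cx3cl1, Ccl27a and Ccr9, 16 by the interval alone and 9 at 4-fold. It became 22 of 37 with a minimum of 5 reads, 5 of 10 with a minimum of 100 reads, 7 of 12 among genes whose mean alone fixes the reads and 7 of 10 among genes of 20 to 99 reads, a setting chosen after seeing the data. Each of these settings tests more or fewer genes, and the share of all genes called was 19.1%, 11.8%, 44.9% and 51.5%. The share of all genes called towards the limbus was 20.1% after scaling to total reads, 36.0% by the interval alone and 11.2% at 4-fold. The number called higher in the cornea was 0 except by the interval alone, which gave 3 of 20 (Cxcl1, Cxcl2 and Ccl25). By that rule 40.5% of all genes were called towards the cornea. The median log2 ratio of the members moved to 2.29 among genes of 20 to 99 reads, and lay between 1.10 and 1.90 elsewhere. Total reads as the scale added 0.206 to each log2 ratio, which moved Cx3cl1 to 1.16, Cxcl16 to 1.46 and Cxcr7 to 0.84, outside their counting intervals. With that shift the interval of Ccl25 included 1 (log2 -0.60), while Cxcl1 and Cxcl2 were at -0.78 and -0.69. No ratio beyond counting error changed sign. With 1 library per tissue, the depth limits what genes under 20 reads can show, and the spread between animals is unknown for every gene.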
